A study of Mus musculus with 6 samples.

Results

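The miR-130 and miR-301 family was examined in mouse nephron progenitor cells, the self-renewing cells of the kidney cortex from which nephrons form. Its members were the rows of the deposited small RNA table named mmu-miR-130a-3p, mmu-miR-130b-3p, mmu-miR-130b-5p, mmu-miR-301a-3p and mmu-miR-301b-3p. Each name matched 1 row, giving 5 of the 1034 mature miRNAs. CD1 mice supplied the cells, either as embryos at E14.5 or as newborns on the day of birth (P0). Each stage had 3 libraries, and the labels name no genetic change and no treatment. Each library was made from the pooled kidneys of 1 litter, and Itga8-positive cells were captured on magnetic beads, so other Itga8-positive or carried-over cells are part of each bulk measurement. The table holds small RNA only, and protein-coding markers of nephron progenitors were not checked here.

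A microRNA precursor folds into a hairpin, from which a mature strand can be cut from the 5′ side (5p) and from the 3′ side (3p). One strand, the guide, is usually loaded into an Argonaute protein and pairs with target messenger RNAs mainly through its seed, bases 2 to 8. The other strand, the passenger, is usually degraded. In this family the 3p strands are the guides. miR-130 strands are known to repress Pparg, a nuclear receptor of fat cell formation.

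Sequences are shown because the comparisons below turn on which strands share a seed and which come from 1 hairpin. RefSeq's table for build GRCm38.p6 held a mature sequence for 4 of the 5 members and for the 3 further 5p strands of the same hairpins. Each is written 5′ to 3′ with the seed in capitals.
mmu-miR-130a-3p: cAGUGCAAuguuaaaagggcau
mmu-miR-130b-3p: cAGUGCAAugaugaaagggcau
mmu-miR-301a-3p: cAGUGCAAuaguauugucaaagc
mmu-miR-130b-5p: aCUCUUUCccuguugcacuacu
mmu-miR-130a-5p: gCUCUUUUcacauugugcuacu
mmu-miR-301a-5p: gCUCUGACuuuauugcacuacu
mmu-miR-301b-5p: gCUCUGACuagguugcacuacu

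The 3 printed 3p members carry the same seed, whereas mmu-miR-130b-5p carries a different one. The 3p strands of miR-130a and miR-130b differ at 2 of 22 bases, and those of miR-130a and miR-301a at 10 of the 22 bases compared. The 5p strands of miR-301a and miR-301b share a seed of their own and differ at 3 of 22 bases. How reads of such close pairs were divided may depend on the authors' read assignment, which was not tested. The 3p seed occurs in 7 mature miRNAs of RefSeq's list, of which 3 are the members printed above, while miR-130c, miR-721, miR-6341 and miR-6389 were not analysed here.

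Both strands of miR-130b come from the hairpin printed next, which shows the 5p strand and then the 3p strand in capitals, from chr16:17124061-17124142 (GRCm38.p6, minus strand).
Mir130b: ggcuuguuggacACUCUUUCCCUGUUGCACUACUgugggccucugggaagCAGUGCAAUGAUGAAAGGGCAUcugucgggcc

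The family lies at 3 places in the genome. miR-130a-3p was at chromosome 2, 84741116 to 84741137 on the minus strand, where GENCODE M21 (GRCm38) annotates the miRNA gene Mir130a and no other gene. miR-301a-3p was at chromosome 11, 87113054 to 87113076 on the plus strand, in an intron of Ska2, a gene for a spindle and kinetochore protein. miR-130b-3p (chromosome 16, 17124071 to 17124092), miR-130b-5p (17124109 to 17124130) and miR-301b-3p (17124420 to 17124442) were on the minus strand in an intron of the protein-coding gene 2610318N02Rik. The hairpins Mir130b and Mir301b are 257 bases apart in that intron. No other hairpin of the table had a row within 10000 bases of a member. The positions in the table equalled those in RefSeq for the members with a sequence.

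The libraries held 2649506 to 34934526 recovered reads, the 2 smallest being E14.5 replicates 1 and 3. Levels are in TPM, the authors' read number per base of a miRNA scaled to a library total of 1000000. How far TPM values of different miRNAs reflect their molecule numbers was not tested. Orders, sums, shares and ratios of strands below therefore compare TPM values only. The lowest read number of any member in any library was 1161 (miR-130b-5p in P0 replicate 3), so counting error was small against the spread between litters. P0 replicate 1 stood apart from its group. On log2(TPM + 1), across miRNAs, it correlated on average at a Pearson r of 0.948 with E14.5 and of 0.908 with P0 replicates 2 and 3, and stage results are therefore given with and without it. A change in such bulk samples cannot tell fewer cells of a type from less RNA per cell.

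miR-130a-3p was the most abundant member in each of the 6 libraries. It had 5741, 6484 and 5611 TPM in E14.5 replicates 1 to 3, and 6443, 1428 and 1386 TPM in P0 replicates 1 to 3. P0 replicate 1 was thus within the E14.5 range while the other P0 libraries were far below it, and the stages overlapped. Among all miRNAs of a library it ranked between 26 and 33 at E14.5, 28 in P0 replicate 1, and 55 and 54 in P0 replicates 2 and 3.

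miR-130b-3p, its closest relative in sequence, showed the same arrangement at a lower level. It had 1280, 2023 and 1612 TPM in E14.5 replicates 1 to 3, and 1479, 409 and 400 TPM in P0 replicates 1 to 3. Again only P0 replicate 1 reached the E14.5 values.

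miR-301a-3p, the member inside Ska2, had 3028, 1751 and 2652 TPM in E14.5 replicates 1 to 3, and 1174, 391 and 358 TPM in P0 replicates 1 to 3. Each P0 library was below each E14.5 library. miR-301b-3p had 971, 1032 and 1117 TPM in E14.5 replicates 1 to 3, and 565, 172 and 122 TPM in P0 replicates 1 to 3. Here too the stages did not overlap, and P0 replicate 1 was the highest of its group.

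miR-130b-5p, the strand opposite miR-130b-3p, was the least abundant member. It had 546, 663 and 670 TPM in E14.5 replicates 1 to 3, and 206, 88.8 and 54.0 TPM in P0 replicates 1 to 3. P0 replicate 1, which was within the E14.5 range for miR-130b-3p, was below that range for the strand from the same hairpin.

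**Figure D1:**
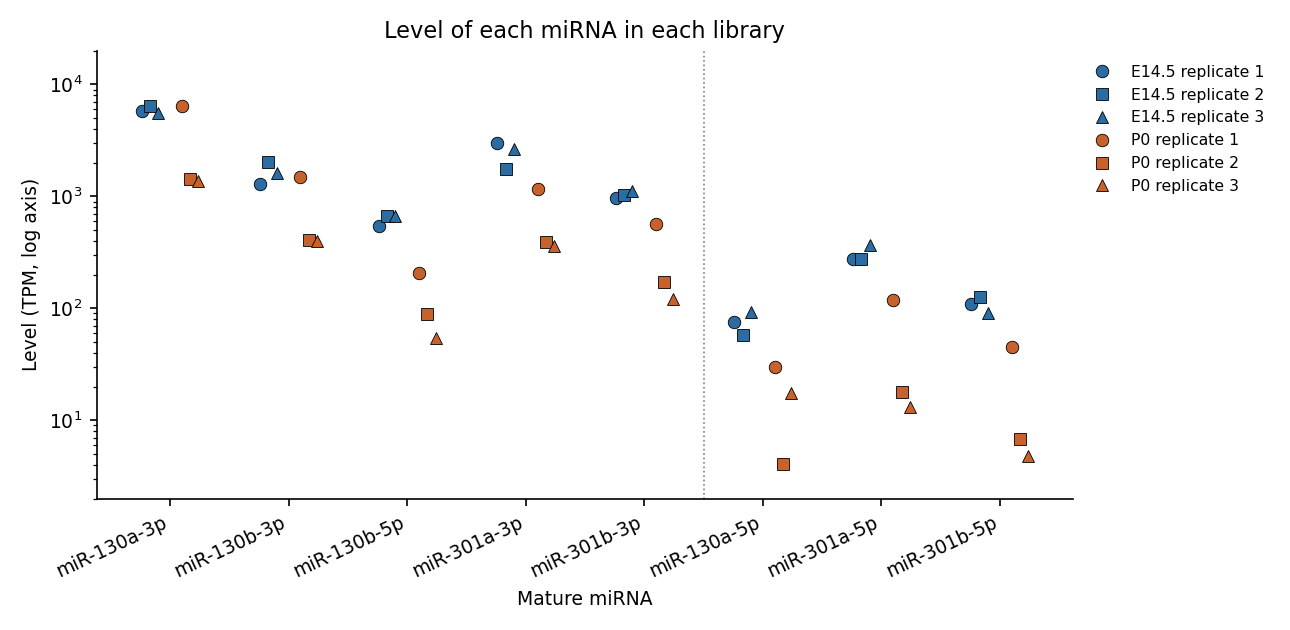
Level in TPM (log axis) of each miRNA in each of the 6 libraries, with E14.5 in blue, P0 in orange and a marker shape per replicate number; the 5 members are left of the dotted line and the other 5p strands of their hairpins right of it. P0 replicates 2 and 3 lie below the E14.5 libraries for each miRNA, whereas P0 replicate 1 overlaps them for miR-130a-3p (6443 TPM) and miR-130b-3p (1479 TPM).

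The order of the members differed between the stages in the middle places. At E14.5 miR-130a-3p came first, miR-301a-3p and miR-130b-3p followed with overlapping values (1751 to 3028 and 1280 to 2023 TPM), and miR-301b-3p and miR-130b-5p came last with ranges that touched no neighbour. miR-301a-3p was above miR-130b-3p in E14.5 replicates 1 and 3. At P0 the order within each of the 3 libraries was miR-130a-3p, miR-130b-3p, miR-301a-3p, miR-301b-3p, miR-130b-5p, and the gap between miR-130b-3p and miR-301a-3p was small in P0 replicate 2 (409 and 391 TPM).

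The summed level of the 4 3p members varied little at E14.5 in TPM, with 11020, 11289 and 10993 TPM in replicates 1 to 3. At P0 it was 9661, 2401 and 2266 TPM in replicates 1 to 3, so all P0 libraries were lower, P0 replicate 1 by the least. The E14.5 mean was 11101 ± 164 TPM and the P0 mean 4776 ± 4231 TPM (SD, n = 3 each). By exact permutation, two-sided, p was 0.1, which is the lowest that 3 against 3 libraries can reach. After median-of-ratios scaling, which sets the typical miRNA level across libraries rather than the library total, the E14.5 sum was 7107 ± 676 and the P0 sum 6518 ± 3838 (SD, n = 3 each). The stages then overlapped, and the exact p was 0.9. With upper-quartile scaling the E14.5 sums varied more, at 7074, 11698 and 5135 in replicates 1 to 3, the P0 sums were 15530, 3675 and 2963, and the exact p was again 0.9.

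The stage difference of each member was read from a limma fit to all tested miRNAs on log2(TPM + 1). Across the 5 members, 3 fell at P0 (miR-130b-5p, miR-301a-3p and miR-301b-3p) and 2 did not pass the adjusted threshold of 0.05. In the same fit 220 of 670 tested miRNAs were called lower, or 32.8%. The median log2 fold change was −2.14 over the members and −1.20 over all tested miRNAs, and 5 of 5 members were below the latter. The 3 P0 libraries were all below the 3 E14.5 libraries for the same 3 members, and for 46.4% of all tested miRNAs.

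miR-130b-5p fell by 2.63 on the log2 scale, that is 6.20-fold (SE 0.59, limma adjusted p = 0.00710). miR-301b-3p fell by 2.18, or 4.54-fold (SE 0.61, limma adjusted p = 0.0181), and miR-301a-3p fell by 2.14, or 4.40-fold (SE 0.57, limma adjusted p = 0.0143). Leaving out E14.5 replicates 1, 2 or 3 left 1, 2 and 0 of 5 members called lower, against 16.6%, 23.1% and 10.7% of all miRNAs tested. Leaving out P0 replicates 2 or 3 left 1 of 5 each, against 16.6% and 19.6%. These were larger falls than that of the typical miRNA; among the 670 log2 fold changes ordered from the largest fall, they took places 95, 152 and 158. The log2 fold changes of miR-130a-3p and miR-130b-3p were −1.34 (SE 0.60, limma adjusted p = 0.0909) and −1.37 (SE 0.59, limma adjusted p = 0.0848), close to the median of all miRNAs, at places 302 and 292.

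Median-of-ratios scaling moved the median log2 fold change of all miRNAs from −1.20 to −0.17. On that scale 0 of 5 members passed the threshold in limma, against 5.22% of all miRNAs called lower, and 1 of 5 (miR-130b-5p) was lower with an unadjusted p under 0.05, against 18.7% of all miRNAs. limma-voom on recovered reads and limma with upper-quartile scaling also called 0 of 5, where 1.64% and 3.28% of all miRNAs were called lower. These shares are so low that 0 of 5 does not set the members apart from other miRNAs. The log2 fold change was −1.34 for miR-130b-5p (limma adjusted p = 0.0805), −0.89 for miR-301b-3p (limma adjusted p = 0.213) and −0.84 for miR-301a-3p (limma adjusted p = 0.208). It was −0.05 for miR-130a-3p, with a 95% interval from −1.15 to 1.05, and −0.07 for miR-130b-3p, with an interval from −1.12 to 0.97. These intervals are wide enough to hold either a fall or a rise of about 2-fold.

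P0 replicate 1 was singled out from these same data because it resembled the other stage, so leaving it out favours a stage difference. The p-values without it therefore only describe the remaining libraries. Without P0 replicate 1, 5 of 5 members fell in TPM, when 53% of 689 tested miRNAs were called lower. For miR-130a-3p the value was then −2.08 on the log2 scale (limma adjusted p = 5.69e-05), and for miR-130b-3p it was −1.99 (limma adjusted p = 0.000202). When that library was left out and levels were scaled by median of ratios, miR-130b-5p (−1.63, limma adjusted p = 0.00523), miR-301b-3p (−1.31, limma adjusted p = 0.00757) and miR-301a-3p (−1.16, limma adjusted p = 0.0138) were called lower, against 25.4% of all miRNAs. miR-130a-3p (−0.55, limma adjusted p = 0.105) and miR-130b-3p (−0.46, limma adjusted p = 0.221) were not. With and without P0 replicate 1, and on both scales, miR-130a-3p and miR-130b-3p thus had the smallest differences of the 5 members.

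**Figure D2:**
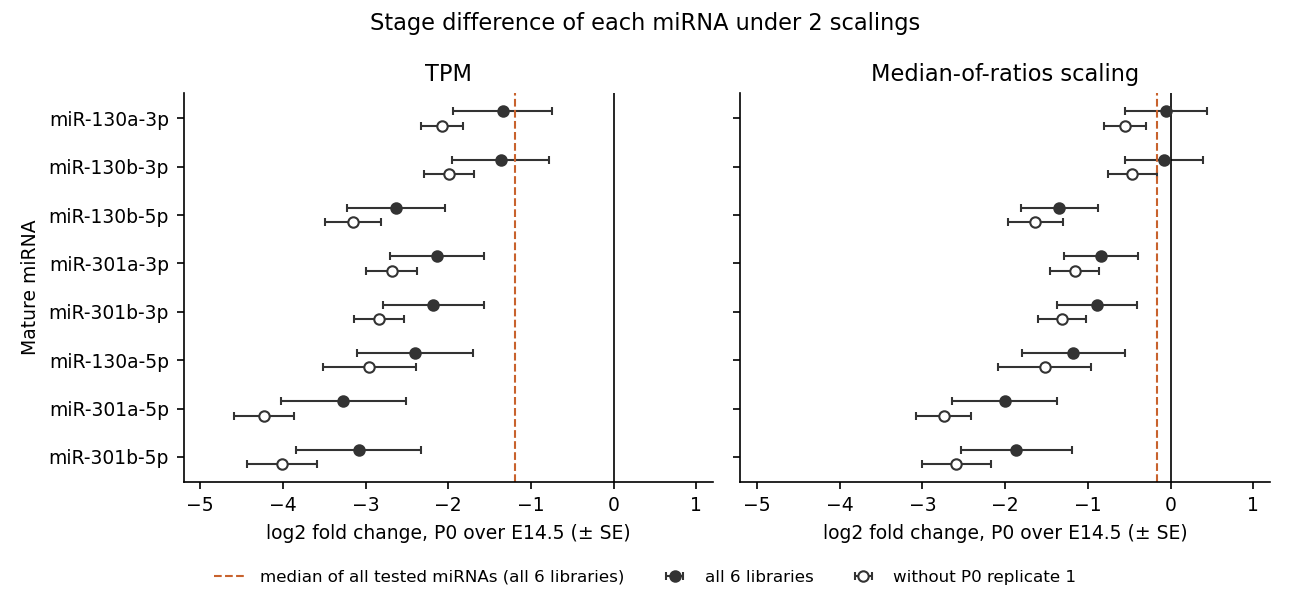
log2 fold change of P0 over E14.5 with its standard error from limma, in TPM (left) and after median-of-ratios scaling (right), for the 5 members and the 3 other 5p strands; filled points use all 6 libraries and open points leave out P0 replicate 1, and the dashed line is the median of all tested miRNAs (−1.20 and −0.17). In both panels miR-130a-3p and miR-130b-3p lie nearest the dashed line and miR-301a-5p is furthest to the left.

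The authors' deposited table gave differences nearer 0 than the TPM fit for each member. Compared with the fit after median-of-ratios scaling, those in the authors' deposited table were nearer 0 for mmu-miR-301a-3p and farther from 0 for the other 4 members. Its log2 fold changes were −0.34 for mmu-miR-130a-3p, −0.40 for mmu-miR-130b-3p, −0.81 for mmu-miR-301a-3p, −1.10 for mmu-miR-301b-3p and −1.60 for mmu-miR-130b-5p. The lowest adjusted p-value among the members in the authors' deposited table was 0.0553, for mmu-miR-130b-5p.

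The 5p strands of the other 3 hairpins, which are not members, were lower at P0 than at E14.5 in each library. miR-301a-5p had 277, 279 and 368 TPM in E14.5 replicates 1 to 3, and 119, 17.8 and 13.3 TPM in P0 replicates 1 to 3. miR-301b-5p had 109, 125 and 91.2 TPM in E14.5 replicates 1 to 3, and 45.3, 6.80 and 4.79 TPM in P0 replicates 1 to 3. miR-130a-5p had 75, 57.9 and 93.4 TPM in E14.5 replicates 1 to 3, and 29.7, 4.05 and 17.6 TPM in P0 replicates 1 to 3.
All 3 were called lower in TPM, with log2 fold changes of −3.27 (limma adjusted p = 0.00787), −3.08 (limma adjusted p = 0.0101) and −2.40 (limma adjusted p = 0.0217), as were 32.8% of all miRNAs. The call of miR-130a-5p was lost without any 1 of the E14.5 libraries and without P0 replicate 2 (limma adjusted p = 0.0525 to 0.120), and those of miR-301a-5p and miR-301b-5p without E14.5 replicate 3 (limma adjusted p = 0.0515 and 0.0509). Scaled by median of ratios, the same strands had log2 fold changes of −2.0, −1.87 and −1.18, and the limma adjusted p-values of 0.0665, 0.0853 and 0.207 were above the threshold. In that fit 5.22% of all miRNAs were called lower. On that scale and without P0 replicate 1, miR-301a-5p (−2.74, limma adjusted p = 0.000567) and miR-301b-5p (−2.59, limma adjusted p = 0.00175) were called lower and miR-130a-5p was not (−1.52, limma adjusted p = 0.0533). Of all miRNAs 25.4% were then called lower, and the limit stated above for leaving out P0 replicate 1 applies here too. In the authors' deposited table the adjusted p-value was 0.0188 for mmu-miR-301a-5p, 0.00975 for mmu-miR-301b-5p and 0.414 for mmu-miR-130a-5p.

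Ratios of 2 strands in the same library do not depend on how libraries were scaled. The tested log2 ratios do so only through the 1 TPM added to each level. For the strands of Mir130b, the ratio of 3p to 5p was 2.35, 3.05 and 2.40 in E14.5 replicates 1 to 3, and 7.17, 4.61 and 7.40 in P0 replicates 1 to 3. The P0 ratios were all above the E14.5 ratios, P0 replicate 1 included. With a pseudocount of 1 TPM, the log2 ratio had a mean of 1.37 ± 0.21 in E14.5 libraries and of 2.63 ± 0.38 in P0 libraries (SD, n = 3 each), a difference of 1.26 with an exact two-sided permutation p of 0.1. Of 9 ratios compared, 4 were set in the design, with earlier results of these data known, and 5 were added after the values had been seen. The smallest p possible was 0.1 for each, so none could pass 0.05 or an adjustment over the 9.

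The ratio of 3p to 5p was also higher on average at P0 for the other hairpins, which were among the added ratios. For miR-301b it was 8.93, 8.25 and 12.2 in E14.5 replicates 1 to 3, and 12.5, 25.3 and 25.4 in P0 replicates 1 to 3, without overlap though P0 replicate 1 was just above the highest E14.5 value. For miR-301a it was 10.9, 6.29 and 7.21 in E14.5 replicates 1 to 3, and 9.86, 22.0 and 27.0 in P0 replicates 1 to 3, with P0 replicate 1 inside the E14.5 range. For miR-130a it was 76.6, 112 and 60.1 in E14.5 replicates 1 to 3, and 217, 353 and 78.8 in P0 replicates 1 to 3. The stages of miR-130a overlapped, and the 5p strand had only 90 reads in P0 replicate 2.

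The log2 differences between stages in the 3p over 5p ratio were 1.26 for miR-130b, 1.13 for miR-301a, 1.05 for miR-130a and 0.90 for miR-301b, with exact permutation p-values of 0.1, 0.2, 0.3 and 0.1. With a pseudocount of 0.1 TPM in place of 1 TPM the differences were 1.28, 1.18, 1.17 and 1.03 in the same order. The difference of miR-130a was 0.66 without P0 replicate 2 and 1.62 without P0 replicate 3, with a pseudocount of 1 TPM. Among 119 hairpins with a mean of at least 10 TPM for both strands, the median difference of the more abundant over the less abundant strand was 0.13, and 64 had a difference above 0. The P0 ratios were all above the E14.5 ratios for 2 of the 4 family hairpins and for 19.3% of the 119. Differences at least as large as those of miR-130b and miR-301b were seen in 27 and 41 of the 119 hairpins, so the sizes were not rare.

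Ratios were also taken between 1 pair of neighbours in the genome and between pairs of relatives in sequence, and the difference between these kinds of pair was not tested. miR-130b-3p and miR-301b-3p lie in the same intron, and miR-130b-3p over miR-301b-3p was 1.32, 1.96 and 1.44 in E14.5 replicates 1 to 3, and 2.62, 2.38 and 3.29 in P0 replicates 1 to 3. The stages did not overlap, with a log2 difference of 0.82 (exact two-sided permutation p = 0.1). miR-130a-3p and miR-130b-3p lie on different chromosomes, and their ratio was 4.49, 3.21 and 3.48 in E14.5 replicates 1 to 3, and 4.36, 3.49 and 3.47 in P0 replicates 1 to 3. These ratios overlapped almost entirely, with a log2 difference of 0.02 (exact permutation p = 0.9). The ratio of miR-301a-3p to miR-301b-3p, also from different chromosomes, was 3.12, 1.70 and 2.37 in E14.5 replicates 1 to 3, and 2.08, 2.28 and 2.94 in P0 replicates 1 to 3. It too overlapped, with a log2 difference of 0.05 (exact permutation p = 1). The ratio of miR-301a-5p to miR-301b-5p overlapped between the stages as well (log2 difference −0.18, exact permutation p = 0.8).

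The balance between the miR-130 and miR-301 3p strands was added after these values were seen. The sum of miR-130a-3p and miR-130b-3p over the sum of miR-301a-3p and miR-301b-3p was 1.76, 3.06 and 1.92 in E14.5 replicates 1 to 3, and 4.56, 3.26 and 3.72 in P0 replicates 1 to 3. The P0 values were all above the E14.5 values, with P0 replicate 1 the highest and E14.5 replicate 2 close to the lowest P0 library. The log2 difference was 0.81, and 0.68 without P0 replicate 1 (exact two-sided permutation p = 0.1 with all libraries).

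**Figure D3:**
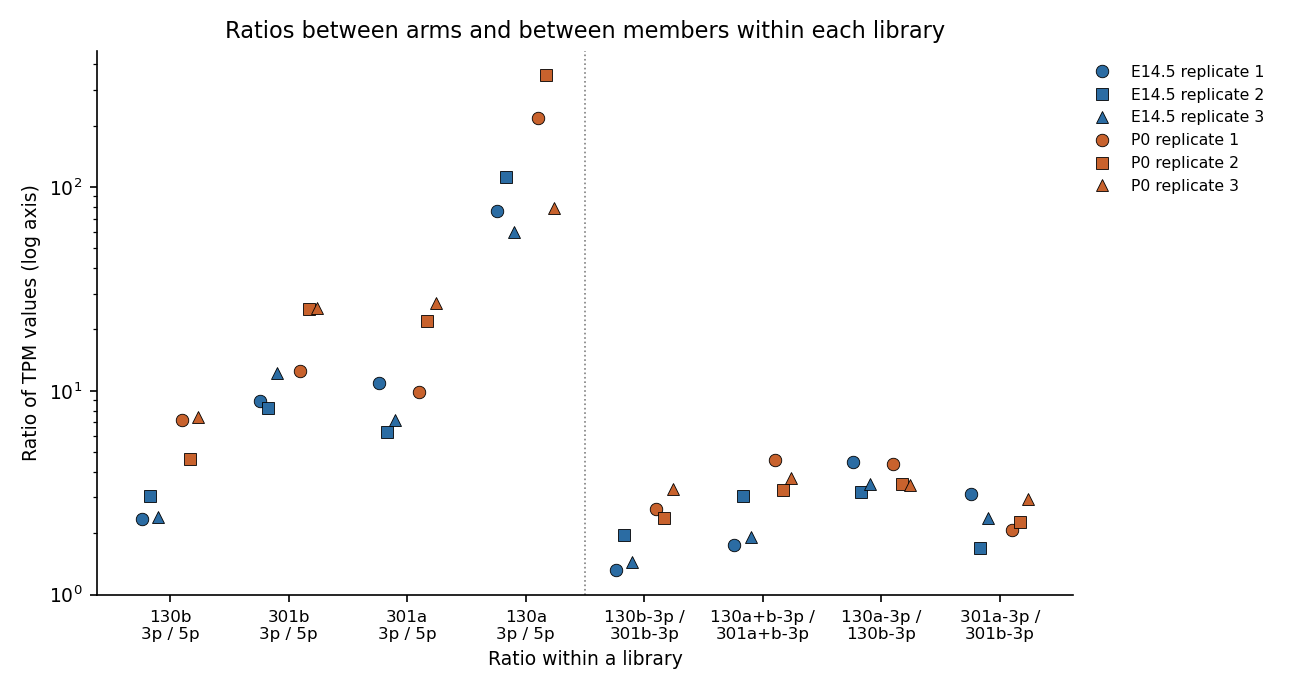
Ratio of TPM values within each library (log axis), for the 3p over 5p strand of each hairpin (left of the dotted line) and for pairs of 3p members (right of it), with E14.5 in blue, P0 in orange and a marker shape per replicate number. The ratios of miR-130b 3p to 5p (at most 3.05 at E14.5, at least 4.61 at P0) and of miR-130b-3p to miR-301b-3p do not overlap between stages, while those of miR-130a-3p to miR-130b-3p and of miR-301a-3p to miR-301b-3p do.

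As shares of the summed level of the 4 3p members, miR-130a-3p took 52.1%, 57.4% and 51.0% in E14.5 replicates 1 to 3, and 66.7%, 59.5% and 61.2% in P0 replicates 1 to 3. It was the majority strand in each library, with a larger share in each P0 library than in each E14.5 library. miR-301b-3p took 8.81%, 9.14% and 10.2% in E14.5 replicates 1 to 3, and 5.85%, 7.15% and 5.37% in P0 replicates 1 to 3. miR-301a-3p took 27.5%, 15.5% and 24.1% in E14.5 replicates 1 to 3, and 12.1%, 16.3% and 15.8% in P0 replicates 1 to 3, with E14.5 replicate 2 inside the P0 range. The shares of miR-130b-3p overlapped, at 11.6% to 17.9% at E14.5 and 15.3% to 17.7% at P0. The widest 95% Wilson interval of a share of reads was that of miR-130a-3p in E14.5 replicate 1, from 50.6% to 51.8%.

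**Figure D4:**
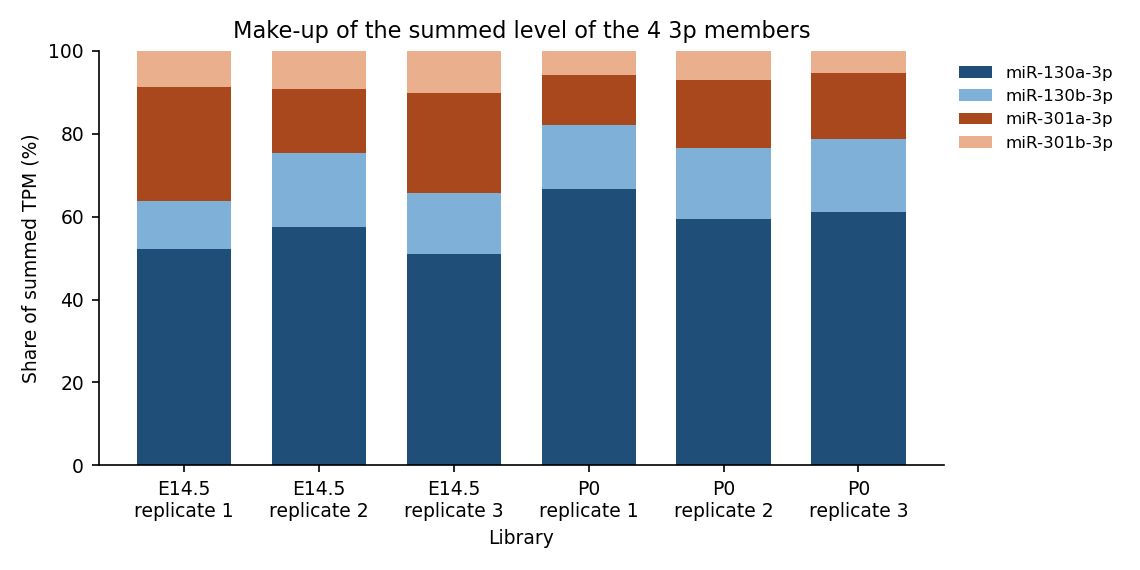
Share of the summed TPM of the 4 3p members taken by each in each library, in percent. miR-130a-3p makes up 51.0% to 57.4% at E14.5 and 59.5% to 66.7% at P0, and miR-301b-3p is the smallest part of each bar.

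The miRNAs whose pattern over the 6 libraries was most like the mean log2(TPM + 1) of the 4 3p members were named by Pearson correlation among 424 miRNAs of other hairpins with a mean of at least 10 TPM. In TPM these were miR-376c-3p (r = 0.998), miR-503-5p (r = 0.998) and miR-186-5p (r = 0.997). miR-503-5p had 1827, 1673 and 1692 TPM in E14.5 replicates 1 to 3, and 1356, 439 and 403 TPM in P0 replicates 1 to 3. After median-of-ratios scaling they were miR-15b-3p (r = 0.997), miR-669a-3p (r = 0.986) and miR-15b-5p (r = 0.985). The libraries share their depth and scaling across miRNAs, and P0 replicates 2 and 3 set most of each correlation's range, so these values describe a likeness only.

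Marker miRNAs of other cell types were compared between the stages in the same fit, in which 32.8% of all miRNAs were called lower in TPM. The 2 endothelial markers (miR-126a strands) summed to 26608 to 44921 TPM at E14.5 and to 5634 to 8158 TPM at P0, and 2 of 2 were called lower in TPM. The 5 epithelial markers (miR-200 family) summed to 4122 to 23183 TPM at E14.5 and 500.2 to 1542 TPM at P0, with 5 of 5 called lower. The 5 stromal markers (miR-199, miR-214, miR-143 and miR-145a) summed to 22316 to 34716 TPM at E14.5 and 7684 to 14949 TPM at P0, with 2 of 5 called lower. The 4 erythroid markers summed to 242 to 417 TPM and 127 to 189 TPM, with 1 of 4 called lower, and the 4 leukocyte markers to 632 to 1202 TPM and 454 to 629 TPM, with 0 of 4 called. After median-of-ratios scaling, 1 of 2 endothelial and 3 of 5 epithelial markers were called lower, 1 of 4 leukocyte markers higher and no other marker in limma. Of all 670 miRNAs tested on that scale, 35 (5.22%) were called lower and 38 higher. None of these markers was at 0 in any library, and their part in the differences of the miR-130 and miR-301 strands was not tested. In P0 replicate 1 the sums of all 5 marker lists were below those of each E14.5 library, the leukocyte sum by little (629 against at least 632 TPM), as were miR-301a-3p, miR-301b-3p and miR-130b-5p there, whereas miR-130a-3p and miR-130b-3p were within the E14.5 range.

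The members with a sequence had a GC content below the median of the miRNAs tested. The GC content was 40.9% for miR-130a-3p, 45.5% for both strands of miR-130b and 39.1% for miR-301a-3p, against a median of 48% over 563 tested miRNAs with a sequence. Across those miRNAs, which are not independent, the Spearman correlation of GC content with the log2 fold change in TPM was 0.40. The strands of miR-130b have equal GC content and differed in fold change by the ratio given above; the part of base composition in the fall of the members was not tested.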

How the data were processed

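Small RNA of 6 libraries was measured, 3 per stage, each from 1 litter pool. The authors deposited 1 table of 1104 rows for 1034 miRNAs in TPM. The submitters' processing notes name mm10, featureCounts and DESeq2 1.26.0; trimming, aligner and the use of molecular tags are not given in the sources used here. The table also held the authors' mean normalised signal, log2 fold change with its standard error, test statistic (a score), p-value and adjusted p-value, per the file headers. Deposited TPM values multiplied by end minus start were whole multiples of 1 step per library (100% of values, tolerance 1e-06), which gave the reads. Where a name had several rows (52 names), only that with the largest total was kept; each member has 1 row.

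Stages were compared with limma 3.58.1 (R 4.3.3) on log2(TPM + 1), which understates changes of low miRNAs, for miRNAs averaging at least 1 TPM, with a mean-variance trend, Benjamini-Hochberg adjustment over all tested and a threshold of 0.05. Ratios and sums were tested by exact permutation (scipy 1.17.1). P-values measure the spread between litters. Wilson intervals, and a floor of 3 reads (0.0863 to 1.14 TPM at 21 bases), cover counting error only. The labels give no sequencing batch. The fit was tested on simulated data. The alternatives were scaling, pseudocount, filter, summed rows, limma-voom, the replicate number as a block, and leaving out each library. Apart from the marker lists and seed sharers without a row, which are given by name or as sums, the miRNAs named were the members, the other strands of their hairpins, seed sharers with a row, and the 3 closest patterns on each scale. Members, lists and tests were chosen with earlier results of these data known.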

Additional observations from a re-analysis of the deposited data

How the results depend on the processing

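Over all miRNAs, 229 were called in TPM (9 higher, 220 lower). The number was 73 with median-of-ratios scaling (38 higher, 35 lower), 34 with upper-quartile scaling (12 higher, 22 lower) and 28 with limma-voom (17 higher, 11 lower). It ranged from 72 (without E14.5 replicate 3) to 420 (without P0 replicate 1) in TPM, and from 0 to 331 with median-of-ratios scaling, when 1 library was left out.

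Calls of miR-130b-5p, miR-301a-3p and miR-301b-3p held with a pseudocount of 0.1, no filter, a 10 TPM filter, summed rows and the block in TPM, and were lost under each other scaling of all 6 libraries. Their log2 fold changes were −1.34, −0.84 and −0.89 with median-of-ratios scaling, −1.51, −1.01 and −1.06 with upper-quartile scaling, and −1.35, −0.82 and −0.88 with limma-voom. Leaving out 1 library gave −3.15 to −2.20, −2.69 to −1.83 and −2.84 to −1.73 in TPM, with 5, 2 and 1 of 6 fits past the threshold, and −1.63 to −0.99, −1.16 to −0.62 and −1.31 to −0.53 with median-of-ratios scaling, past it only without P0 replicate 1. Their limma adjusted p-values over 21 alternatives spanned 2.36e-05 to 0.277, 3.85e-05 to 0.507 and 2.32e-05 to 0.575.

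For miR-130a-3p and miR-130b-3p the same ranges were −2.08 to −0.97 and −1.99 to −1.05 in TPM, past the threshold only without P0 replicate 1, and −0.55 to 0.24 and −0.46 to 0.16 with median-of-ratios scaling. On that scale they turned positive without E14.5 replicate 2 (0.062 and 0.14), P0 replicate 2 (0.16 and 0.081) and P0 replicate 3 (0.24 and 0.16). The 3 other 5p strands were lower at P0 in each of 63 alternative fits, of which 29 passed the threshold (14 of the 36 without 1 library). The cause of these changes was not tested.

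Without 1 library, the log2 ratio differences ranged from 1.15 to 1.48 (miR-130b 3p over 5p), 0.68 to 0.98 (miR-130b-3p over miR-301b-3p), −0.086 to 0.17 (miR-130a-3p over miR-130b-3p), −0.18 to 0.26 (miR-301a-3p over miR-301b-3p) and −0.36 to 0.067 (miR-301a-5p over miR-301b-5p). The last 3 thus changed sign, miR-301a-5p over miR-301b-5p without E14.5 replicate 3 (miR-130a-3p over miR-130b-3p −0.077, −0.018 and −0.086 without E14.5 replicates 2 and 3 and P0 replicate 1; miR-301a-3p over miR-301b-3p −0.18 and −0.098 without E14.5 replicate 2 and P0 replicate 3). The difference of the summed 3p level ranged from −8767 to −5070 TPM.

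Deviations of same-numbered libraries from their stage means correlated at 0.193, 0.183 and 0.0423, and those of differently numbered libraries at −0.182 to 0.0770. These values do not settle whether the numbers mark pairs. The main fit used the stage only, and the block was an alternative. With the replicate block 247 miRNAs were called in TPM and 77 with median-of-ratios scaling (41 higher, 36 lower), and the block changed the call of no member on either scale. Depth was lowest in E14.5 replicates 1 and 3. The fewest reads of each 5p strand were in P0 replicate 2 (miR-130a-5p, 90 reads) or P0 replicate 3 (miR-301b-5p 103, miR-301a-5p 285 and miR-130b-5p 1161 reads). The part of depth in the stage differences was not tested.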
